A study of Mus musculus with 16 samples.

Results

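The data described here are 8 RNA libraries of ribosome-bound RNA pulled down from striatal astrocytes, 4 from mice given clozapine N-oxide (CNO) and 4 from mice given vehicle, out of 16 libraries in the series. The other 8 are whole-lysate input libraries of the same mice. The members were the libraries whose titles carry a C (CNO) or V (vehicle) code, a number from 2 to 5 and the ending IP, and every gene in them was used. CNO is a synthetic ligand for designer receptors, and the series title states that Gi signalling of striatal astrocytes was activated. Both groups were male C57BL/6J mice of 63 days labelled wild-type, killed 2 h after the injection; the CNO group received 1 mg/kg and the control group vehicle. In both groups ribosomes were captured with an antibody to a hemagglutinin (HA) tag. The labels name neither the designer receptor nor the virus, promoter or mouse line that carries receptor or tag, and no mice given CNO without the receptor are analysed here. The series text speaks of 4 mice whereas the titles hold 8 mouse codes, so the codes were taken as animals. If they are not, a p-value here reflects no more than how these libraries scatter, which may be technical.

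Astrocytes carry many G protein-coupled receptors. A receptor that couples to Gi inhibits adenylyl cyclase through the alpha subunit and frees beta-gamma subunits, and in astrocytes Gi-coupled receptors are also known to raise calcium from internal stores. Astrocytes in turn release cytokines, growth factors, thrombospondins and peptides, supply neurons with cholesterol and lactate, and clear glutamate and potassium from the extracellular space. RNA bound to tagged ribosomes reports what the tagged cells were translating or had ready for translation, so a value here is neither a protein level nor a rate of transcription.

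The IP libraries held 52.1 to 61.5 M reads assigned to genes. Values are read counts scaled to a common library total (CPM), recovered from the log2 CPM that the authors deposited, and lists of values run in the order of replicates 2, 3, 4 and 5. Fold changes are CNO over vehicle on the log2 CPM scale with the standard error (SE) of limma, and p-values are adjusted over all genes tested. A call is said to hold throughout where it was also made in every one of 18 other settings in which the gene was tested. The first principal component (47.2% of the variance) separated CNO from vehicle, and the second (21.3%) set vehicle libraries 3 and 5 at opposite ends. Interferon response genes summed to 1741 CPM in vehicle library 3 and 5336 CPM in vehicle library 5, against 3220 to 4721 CPM after CNO. Oligodendrocyte markers summed to 7232 CPM in vehicle library 3 and 16851 CPM in vehicle library 5, against 9478 to 12630 CPM after CNO. Results that rest on these libraries are given with and without them below.

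The label was checked against cell type markers. All 9 defining astrocyte markers were higher in vehicle IP than in vehicle input, Aldh1l1 by 2.92, Slc1a2 by 3.79 and Gja1 by 2.99 on the log2 scale. The 5 defining microglial markers were lower in IP, with log2 ratios to input from -2.80 (P2ry12) to -5.42 (C1qa). Of the 5 defining interneuron markers 4 were higher in IP, Nos1 by 3.24, Chat by 2.57, Npy by 1.99 and Sst by 1.93, and so were the 3 defining ependymal markers, Foxj1 by 2.62. No defining marker of any of these cell types was at 0 in any IP library. Fewer cells of a type and less RNA per cell cannot be told apart in such bulk RNA.

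Ribosome-bound RNA of many genes differed between CNO and vehicle, with larger increases than decreases. Of 15602 genes tested 1599 rose (10.2%) and 1104 fell (7.08%), 17.3% in all. At least 2-fold changes were 380 rises (2.44%) and 50 falls (0.32%). Rises of 8-fold or more numbered 54 and of 4- to 8-fold 79, whereas only 1 fall reached 4-fold or more and 49 lay between 2- and 4-fold. Changes under 1.5-fold made up 963 of the rises and 903 of the falls. The 4 CNO libraries all lay above the 4 vehicle libraries for 12.8% of the genes tested and all below for 10.1%. Of the calls, 1040 rises and 459 falls held throughout. With upper quartile scaling the counts were 1259 rises and 1947 falls, so the share of calls that were rises fell from 59.2% to 39.3% while the median of all genes moved from -0.01 to -0.06. The number of falls was 595 without vehicle library 2, 714 without vehicle library 4 and 728 without CNO library 4. Without both vehicle libraries 3 and 5, a setting chosen after seeing the data, 1520 genes rose and 1065 fell.

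**Figure D1:**
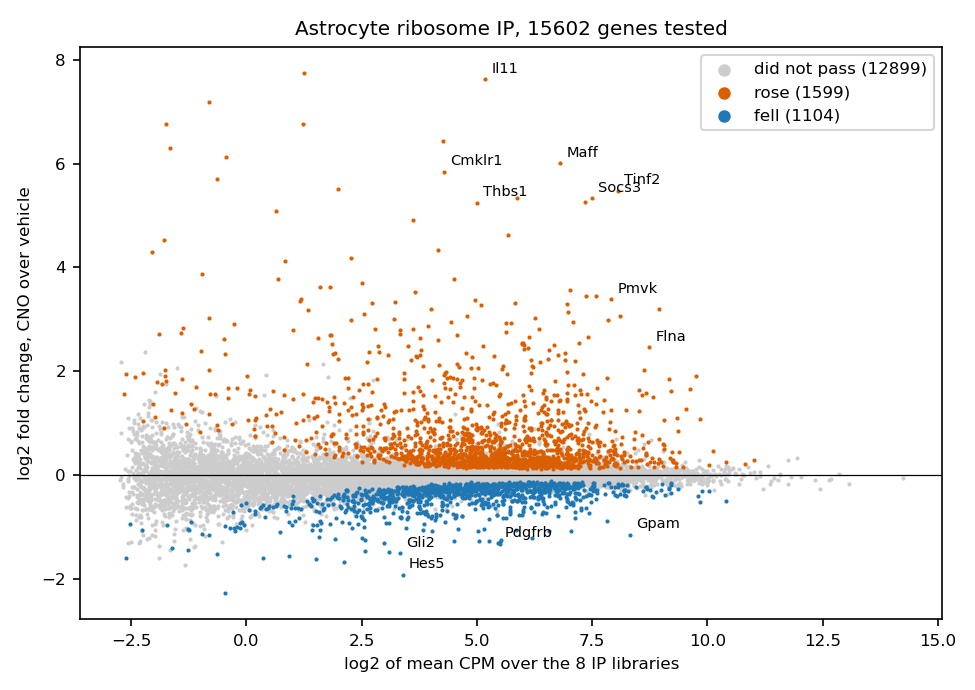
Log2 fold change of CNO over vehicle (vertical axis) against the log2 of the mean CPM of the 8 IP libraries (horizontal axis) for the 15602 genes tested; orange points rose, blue points fell and grey points did not pass. Rises reach larger sizes than falls: 54 genes rose at least 8-fold, while 1 fall reached 4-fold.

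Secreted ligands are described first. The interleukin-6 family, cytokines that share the signalling receptor subunit gp130, rose in 4 of 6 measured members, all 4 throughout, with a list median of 3.0. The background shares over all genes tested were 10.2% for rises and 7.08% for falls, and each list count below is to be read beside them. Il11, an interleukin of this family (chromosome 7, 4772373 to 4782859 of GRCm38, protein coding), stood at 72, 65.8, 71.8 and 80.5 CPM after CNO. In vehicle libraries it stood at 0.413, 0.218, 0.376 and 0.497 CPM, so the groups lay apart by a log2 fold change of 7.63 (SE 0.22, adjusted p = 9.95e-08). Lif, leukemia inhibitory factor, was measured at 21.3, 19.6, 17.5 and 19.7 CPM against 4.36, 3.4, 4.49 and 4.64 CPM. Its log2 fold change was 2.21 (SE 0.11, adjusted p = 1.65e-06), and its lowest CNO library was above every vehicle library. Clcf1 rose by 3.78 (SE 0.29), from 48 reads in all 4 vehicle libraries together, and Il6 by 6.77 (SE 0.89), from 13. Both passed the filter on low values only with the CNO libraries. Their place among the 4 is therefore no support for the count or the median.

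The synapse-organizing and matrix-bound signals were sparse by comparison. Thbs1 encodes thrombospondin 1, a matrix protein that astrocytes secrete and that promotes excitatory synapse formation. It stood at 65.9, 49.1, 57.2 and 76.3 CPM after CNO and 2.2, 1.58, 1.64 and 1.18 CPM after vehicle (chromosome 2, 118111876 to 118127133). No vehicle library came near a CNO library, and the log2 fold change was 5.25 (SE 0.20, adjusted p = 3.14e-07). Of the 28 synapse-organizing factors tested only Tnc, the matrix glycoprotein tenascin C, rose with it (0.60, SE 0.14) and Wnt5a fell (-0.60, SE 0.14). The call of Tnc was lost without vehicle library 4 (adjusted p = 0.0542), and that of Wnt5a without CNO library 4 or vehicle libraries 2 or 4 (up to 0.0591). The median of the list was -0.04, and 4 members fell without vehicle library 5. Among receptors and partners of thrombospondin the integrin subunit Itga5 rose throughout (0.72, SE 0.11).

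Growth factors and peptides split. Of 45 growth factors 4 rose, a share near the 10.2% of all genes tested, and each held throughout. They included Cyr61, a matricellular target of the Hippo pathway (3.29, SE 0.14), and Fgf2 (1.85, SE 0.11). The others were the EGF receptor ligand Hbegf (1.81, SE 0.06) and the ER-stress responsive Manf (0.91, SE 0.06). Hbegf stood at 144, 170, 177 and 157 CPM after CNO and at 47, 46.3, 45.5 and 45.8 CPM after vehicle, with vehicle libraries close together and every CNO library above them. A further 6 growth factors fell, beside 7.08% of all genes tested, and of these Vegfb (-0.31, SE 0.05) held throughout. The count of falls was 2 without vehicle library 2 and 3 without CNO libraries 2, 4 or 5 or vehicle library 4. Of 23 peptide genes 5 rose and 0 fell, and 3 rose where at least 1 CPM was required in 4 libraries. Scg2, the granin precursor of secretoneurin, went from 560, 598, 558 and 638 CPM to 1263, 1044, 1356 and 1329 CPM, and thyrotropin-releasing hormone Trh rose by 0.82 (SE 0.09). The urocortins Ucn and Ucn2, stress peptides of the corticotropin-releasing factor family, were close to absent in vehicle libraries, with 1 and 4 reads over all 4, and had 234 and 291 reads after CNO. They passed the filter on low values only through the CNO libraries, so their place among the 5 is no support for the count. Of 16 chemokines 4 rose, but only the monocyte chemokine Ccl7 did so throughout (3.71, SE 0.60). The count was 1 without CNO libraries 4 or 5 or vehicle library 4, and 2 without CNO libraries 2 or 3 or vehicle library 2.

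**Figure D2:**
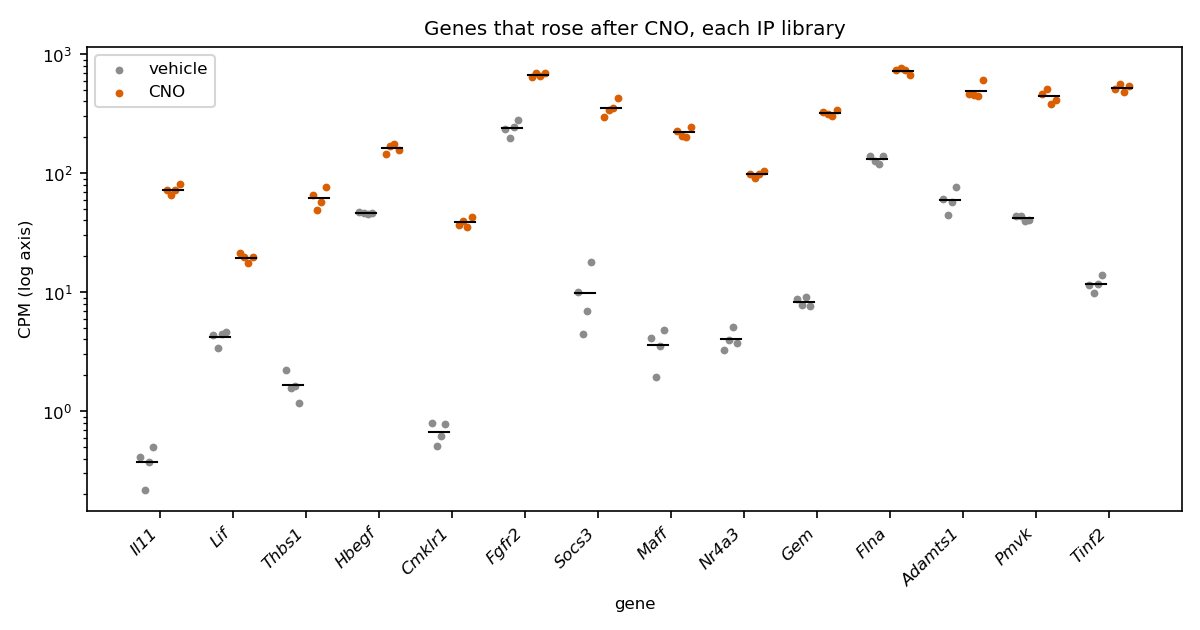
CPM on a log axis (vertical) in each of the 4 CNO (orange) and 4 vehicle (grey) IP libraries for 14 genes that rose; each point is 1 library and each bar a group mean. Only genes whose lowest CNO point lies above the highest vehicle point were drawn, as for Il11 at 65.8 against 0.497 CPM. Of all genes tested 12.8% met this condition.

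Most receptors for such signals did not pass. Of 45 cytokine and growth factor receptors 9 rose and 3 fell, 8 and 2 of them throughout, and the list median was -0.01; the count of falls was 5 without CNO library 3. Il6ra, the ligand-binding interleukin-6 receptor subunit, rose by 2.37 (SE 0.14), while the shared signalling subunit Il6st had a log2 fold change of -0.08 that did not pass (adjusted p = 0.443). Tnfrsf12a, the receptor of the cytokine Tweak, rose by 3.79 (SE 0.37), the ephrin receptor Epha2 by 2.53 and the hepatocyte growth factor receptor Met by 1.88. Fgfr2, a fibroblast growth factor receptor, stood at 648, 696, 654 and 689 CPM after CNO and 235, 198, 246 and 282 CPM after vehicle (log2 fold change 1.5, SE 0.10, adjusted p = 7.92e-06). The groups were far apart at this level, and exons of Fgfr2 overlap a model of Ctbp2. Falls held for the receptor tyrosine kinases Pdgfrb and Erbb2 (-0.70, SE 0.11). Pdgfrb, which binds platelet-derived growth factor B and is used as a marker of mural cells, went from 69.4, 68.6, 69.3 and 46 CPM to 24.5, 28.7, 28.3 and 20 CPM. Every CNO library was below every vehicle library, and the log2 fold change was -1.31 (SE 0.16, adjusted p = 0.000713). In vehicle mice Pdgfrb was 1.49 higher in IP than in input on the log2 scale, while the mural markers Rgs5, Kcnj8 and Abcc9 were lower in IP (log2 ratios of -1.79, -2.44 and -0.86), and none of these 3 passed the CNO test (-0.07, 0.52 and 0.18).

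G protein-coupled receptors rose in 13 of 73 members and fell in 7, beside 10.2% and 7.08% of all genes tested. Of these receptor calls 11 rises and 5 falls held throughout, and the falls numbered 11 without vehicle library 5. Cmklr1, the receptor of chemerin, stood at 36.8, 39.5, 35.3 and 42.4 CPM after CNO and at 0.789, 0.509, 0.62 and 0.773 CPM after vehicle (log2 fold change 5.85, SE 0.15, adjusted p = 3.2e-08). No vehicle library came near a CNO library. The bradykinin receptor Bdkrb2 rose by 3.63 (SE 0.27), the nucleotide receptors P2ry2 and P2ry6 by 2.11 and 2.15, and the sphingosine-1-phosphate receptors S1pr2 and S1pr3 by 2.08 and 2.05. Gpr3, a receptor that raises cAMP without an added ligand, rose by 2.80 (SE 0.15), from 2.07, 2.95, 2.78 and 2.3 CPM to 17.4, 16.4, 14.8 and 22 CPM. The adenosine receptor Adora2b fell by 0.85 (SE 0.10), the lysophosphatidic acid receptor Lpar4 by 0.94 (SE 0.12) and the chemokine receptor Cxcr4 by 1.21 (SE 0.24). Of 33 G protein subunits, adenylyl cyclases and beta-gamma gated potassium channels 0 rose and 2 fell in the limma test, with 6 of 33 at an unadjusted p under 0.05. Limma-voom called 0 and 2 as well. The 2 were Gna13 (-0.37, SE 0.08) and the Gi alpha subunit Gnai2, which stood at 214, 232, 217 and 220 CPM against 267, 227, 263 and 275 CPM in overlapping groups (adjusted p = 0.0429). The call of Gnai2 was lost without any 1 of the libraries other than vehicle library 3 (up to 0.127). The list gave 4 falls without vehicle library 3 and 1 without CNO libraries 2, 3 or 4 or vehicle libraries 2, 4 or 5, and with upper quartile scaling or plain totals 5 members fell. The regulator of G protein signalling Rgs2, which acts on Gq and on adenylyl cyclase, rose from 44.5, 58.2, 45.1 and 46.7 CPM to 142, 130, 125 and 136 CPM (log2 fold change 1.46, SE 0.09), whereas Rgs3 (-0.51) and Rgs12 (-0.43) fell.

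Feedback inhibitors of several pathways rose. Socs3, the inhibitor of gp130 and Jak-Stat signalling, stood at 298, 337, 352 and 424 CPM after CNO and 9.95, 4.47, 6.96 and 18 CPM after vehicle (log2 fold change 5.34, SE 0.37, adjusted p = 1.98e-05). The vehicle libraries spread from the lowest, library 3, to the highest, library 5, yet lay far below every CNO library. In all, 9 of 25 Jak-Stat genes rose, with Bcl3 (2.41), Pim1 (1.09), Stat3 (0.83) and Socs2 (0.51) throughout. Of 24 MAP kinase feedback genes 15 rose and 2 fell, 12 and 1 throughout. Among the risers were the ERK phosphatase Dusp5 (3.0, SE 0.12), the growth regulator Myc (2.72) and the receptor tyrosine kinase inhibitors Spry1 (1.43), Spry4 (1.27) and Spry2 (0.99). The falls numbered 1 without CNO libraries 3 or 4 or vehicle library 2, and the rises 12 without vehicle libraries 3 and 5 together. Of 24 NF-kappaB genes 8 rose and 0 fell, with the inhibitors Nfkbie (1.62) and Nfkbiz (1.59) and the subunit Nfkb1 (1.42) among 7 that held throughout. Factors that bind or deadenylate short-lived mRNAs rose in 8 of 16 cases and fell in 0, led by Zfp36, the tristetraprolin gene (2.82, SE 0.20), and Btg2 (1.56).

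Transcription factors of the immediate response rose in large numbers. Of 44 AP-1 and other bZIP factors 26 rose and 2 fell, 23 and 2 throughout, and the list median was 0.50. Maff, a small Maf protein without an activation domain (chromosome 15, 79346621 to 79359076), stood at 228, 207, 203 and 244 CPM against 4.09, 1.93, 3.52 and 4.84 CPM (log2 fold change 6.01, SE 0.25, adjusted p = 9.25e-07). All CNO libraries were far above all vehicle libraries. Atf3 rose by 5.34 (SE 0.28), Fosl1 by 4.91 (SE 0.34), Fosl2 by 3.57, Fos by 3.45 and Cebpd by 2.95. Falls were held by Dbp (-1.08, SE 0.11) and Tef (-0.30, SE 0.06), which are PAR-domain bZIP factors with daily rhythms. Of 25 Nr4a, Egr and related activity genes 17 rose and 0 fell, 16 throughout. Nr4a3, an orphan nuclear receptor (chromosome 4, 48045153 to 48086447), stood at 98, 91, 98.5 and 105 CPM after CNO and at 3.27, 3.93, 5.08 and 3.74 CPM after vehicle. Its groups were tight and apart (log2 fold change 4.63, SE 0.12, adjusted p = 4.12e-08). The growth arrest genes Gadd45b (3.31), Gadd45g (2.44) and Gadd45a (1.82) all rose. Of 19 Krueppel-like factors 3 rose and 3 fell, with Klf4 (3.53, SE 0.17) and Klf6 (1.0) rising throughout; the falls numbered 5 without CNO library 3 and 2 without CNO libraries 2, 4 or 5 or vehicle libraries 2, 3 or 4.

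Genes known as targets of cAMP and CREB rose in 21 of 31 cases and fell in 2, 18 and 2 throughout, with a list median of 0.80; the list shares Nr4a1, Nr4a2, Nr4a3, Fosb, Nfil3 and Crem with those above. Gem, a small GTPase that restrains voltage-gated calcium channels (chromosome 4, 11704457 to 11714752), stood at 324, 313, 301 and 340 CPM after CNO and 8.71, 7.86, 9.14 and 7.6 CPM after vehicle. It had the smallest adjusted p of all genes tested (log2 fold change 5.26, SE 0.07, adjusted p = 8.57e-10). The enzymes that degrade cAMP were among the risers, Pde3b by 1.99, Pde4b by 1.57, Pde4d by 1.21 and Pde3a by 0.46. Pde4b went from 211, 176, 212 and 226 CPM to 561, 649, 547 and 701 CPM. The salt-inducible kinases Sik1 (1.53), Sik2 (1.13) and Sik3 (0.40), which inhibit CREB coactivators, rose, and the coactivator Crtc3 fell (-0.53, SE 0.06). Rcan1, an inhibitor and target of the calcium-dependent phosphatase calcineurin, stood at 212, 223, 217 and 256 CPM against 70.2, 67.1, 67.8 and 87.4 CPM (log2 fold change 1.64, SE 0.09).

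Promoters of 4 of these genes are shown because they hold the motifs counted here. RefSeq windows on GRCm38.p6 were searched on both strands over the 250 bases before the transcription start for the cAMP response element TGACGTCA, its short form TGACG (contained in the full form) and the AP-1 site TGANTCA. The windows read 5′ to 3′ on the strand of the gene and end at the base before the start of a RefSeq transcript, with the motif named for each gene in capitals (CGTCA is TGACG on the opposite strand). Nr4a3 holds 4 short forms at chr4:48045055-48045304 on the plus strand. Maff at chr15:79347270-79347519 (plus strand) and Tinf2 at chr14:55681818-55682067 (minus strand) hold 1 full element each, which begins 29 and 56 bases before the start. Il11 holds an AP-1 site 98 bases before the start, at chr7:4778142-4778391 on the minus strand.
Nr4a3: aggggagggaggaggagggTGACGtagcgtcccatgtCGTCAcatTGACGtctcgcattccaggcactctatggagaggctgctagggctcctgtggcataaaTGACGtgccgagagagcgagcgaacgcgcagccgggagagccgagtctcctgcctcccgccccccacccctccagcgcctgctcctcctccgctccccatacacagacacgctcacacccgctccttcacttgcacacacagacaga
Maff: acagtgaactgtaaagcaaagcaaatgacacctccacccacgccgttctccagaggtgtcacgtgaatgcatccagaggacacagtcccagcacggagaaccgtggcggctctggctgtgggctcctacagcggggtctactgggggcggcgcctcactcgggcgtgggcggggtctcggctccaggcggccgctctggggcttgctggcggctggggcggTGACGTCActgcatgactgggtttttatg
Tinf2: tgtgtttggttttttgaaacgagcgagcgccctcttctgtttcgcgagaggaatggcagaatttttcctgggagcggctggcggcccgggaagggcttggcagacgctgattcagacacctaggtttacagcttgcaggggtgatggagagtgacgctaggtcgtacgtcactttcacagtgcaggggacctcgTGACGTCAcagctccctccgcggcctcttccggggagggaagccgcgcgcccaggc
Il11: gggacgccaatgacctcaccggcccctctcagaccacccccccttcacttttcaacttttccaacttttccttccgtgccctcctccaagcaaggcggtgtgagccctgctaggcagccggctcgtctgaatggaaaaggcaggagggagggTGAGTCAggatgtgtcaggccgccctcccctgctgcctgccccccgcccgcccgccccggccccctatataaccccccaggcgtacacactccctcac
Of the tested genes 11551 had a window. The full element stood in 348 (3.01%) of these, in 8 of 100 (8%) of the genes that rose at least 4-fold and in 3 of 142 (2.11%) of those that fell at least 1.5-fold. The short form stood in 29.1% of all, 49% of the 4-fold risers and 21.8% of the fallers, and the AP-1 site in 5.58%, 11% and 4.23%. The CArG box bound by SRF stood in 1.36%, 2% and 2.82%. The short form was added to the search after seeing the sequences. No test was made of these shares, and a match is not evidence that a factor binds.

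Cytoskeletal genes that SRF and YAP are known to control rose in 24 of 54 cases and fell in 1, 18 and 1 throughout. Flna, the actin crosslinker filamin A, stood at 734, 763, 731 and 664 CPM after CNO and 139, 126, 120 and 140 CPM after vehicle (log2 fold change 2.46, SE 0.07, adjusted p = 4.12e-08). The groups were far apart. Tpm4 (tropomyosin 4) rose by 3.14, Flnc by 2.55, Zyx (zyxin, of focal adhesions) by 1.67 and the smooth muscle calponin Cnn1 by 5.51. Cnn1 had 41 reads in all 4 vehicle libraries together and passed the filter on low values only with the CNO libraries. The place of Cnn1 among the 24 is therefore no support for the count. The coactivator Wwtr1 (TAZ) rose by 0.97 and its partner Yap1 by 0.30, and Srf itself by 0.46. Of 14 intermediate filament genes 5 rose, among them nestin, Nes (1.66, SE 0.18), and lamin A, Lmna (1.01). Gfap, the astrocyte filament used to mark reactive astrocytes, did not pass: it stood at 3424, 4863, 4390 and 4611 CPM against 3594, 2088, 3390 and 5424 CPM, with the lowest and the highest of all 8 libraries in the vehicle group. Vim, vimentin, had a log2 fold change of 0.67 (SE 0.34) that did not pass either. Tubb6, a beta tubulin, rose by 2.50 (SE 0.29).

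Some matrix-remodelling enzymes rose, and most did not pass. Of 35 extracellular proteases, inhibitors and coagulation factors 9 rose and 3 fell, 8 and 2 throughout, with a median of 0.05. Of all genes tested 10.2% rose and 7.08% fell. Adamts1, a protease of proteoglycans, stood at 463, 456, 447 and 601 CPM against 60.6, 44.1, 57.5 and 76.1 CPM (log2 fold change 3.06, SE 0.16, adjusted p = 3.66e-06). Every CNO library exceeded every vehicle library. Adamts9 rose by 3.38, the urokinase receptor Plaur by 1.92 and tissue plasminogen activator Plat by 0.67. Has2, which makes hyaluronan, rose by 3.09 (SE 0.32) and the hyaluronan receptor Cd44 by 1.63 (SE 0.26). Sphk1, which makes sphingosine-1-phosphate, rose by 6.43 (SE 0.27), from 0.507, 0.327, 0.301 and 0.644 CPM to 29.3, 49.5, 31.2 and 41.4 CPM. The phosphatase Ppap2b, which breaks such lipid phosphates down, fell by 0.52 (SE 0.08).

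Ribosome-bound RNA of most cholesterol synthesis genes rose. Of 25 sterol genes 20 rose, all 20 throughout, and 0 fell, with a list median of 0.97, while Srebf2, Ebp and Tm7sf2 were among those that did not pass (0.09, 0.08 and -0.09). Summed over the list the level was 5330, 5369, 4704 and 4710 CPM after CNO against 2156, 2380, 2155 and 1969 CPM after vehicle. The exact permutation test over the 8 libraries gave p = 0.0286, the smallest it can give, and 0.0638 after adjustment over the lists. Many other lists, such as tubulins and ribosome biogenesis factors, gave the same values. No list passed 0.05 after adjustment. Pmvk, the phosphomevalonate kinase, stood at 461, 507, 382 and 415 CPM against 43.5, 43.3, 39.6 and 40.6 CPM (log2 fold change 3.39, SE 0.08, adjusted p = 3.11e-08). The groups lay apart without overlap. The mevalonate pathway enzymes Mvk and Mvd rose by 2.51 and 2.18, and the feedback protein Insig1 rose by 1.03.

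Fatty acid genes gave calls in both directions. Of 35 members 6 rose and 3 fell, beside 10.2% and 7.08% of all genes tested, and the median was -0.09. The share of falls was near that of all genes. Gpam, the first acyltransferase of glycerolipid synthesis, went from 450, 390, 459 and 470 CPM to 194, 210, 220 and 178 CPM. It was lower in every CNO library (log2 fold change -1.14, SE 0.08, adjusted p = 1.6e-05), and Srebf1, the transcription factor of fatty acid synthesis, fell by 0.43 (SE 0.08). The falls numbered 8 with upper quartile scaling or plain totals, 5 without CNO library 3 or vehicle library 3 and 6 without vehicle library 5. Lipoprotein and cholesterol export genes gave 1 call among 21, the receptor Lrp8 (0.33). It was lost when any 1 of 6 of the 8 libraries was left out, those of CNO 3 and 4 and all of vehicle (adjusted p up to 0.0785). Without vehicle libraries 3 and 5 together its adjusted p was 0.159.

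Several genes of glucose and glycogen handling changed. Of 44 members 8 rose and 2 fell, 7 and 2 throughout, beside 10.2% and 7.08% of all genes tested. The share of falls was thus below that of all genes, and the falls numbered 5 without vehicle library 5. Ppp1r3c, a subunit that directs protein phosphatase 1 to glycogen, stood at 820, 918, 933 and 900 CPM against 296, 317, 278 and 274 CPM (log2 fold change 1.62, SE 0.06, adjusted p = 3.14e-07). The glucose transporter Slc2a1 rose by 1.27 (SE 0.07), hexokinase 2, Hk2, by 1.71 and the glycolytic regulators Pfkfb3 and Pfkfb4 by 1.25 and 0.92. Txnip, which restrains glucose uptake, fell by 1.29 (SE 0.25), with 27.7, 32.8, 25.9 and 17.7 CPM after CNO and 83.9, 55, 74.8 and 42.9 CPM after vehicle. Dio2, the deiodinase that activates thyroxine, went from 392, 391, 401 and 323 CPM to 1137, 1234, 1124 and 1277 CPM (log2 fold change 1.67, SE 0.08) and the thyroxine transporter Slco1c1 from 109, 111, 105 and 95.1 CPM to 162, 190, 179 and 176 CPM (0.75, SE 0.07). The amino acid transporter pair Slc7a5 and Slc3a2 rose by 1.43 and 1.25.

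Protein folding and amino acid stress genes rose in numbers above the background. Of 38 ER chaperone and unfolded protein response genes 22 rose and 0 fell, 14 throughout. Without vehicle libraries 3 and 5 together 18 rose. Hspa5, the ER chaperone BiP, stood at 1094, 1052, 1005 and 1036 CPM against 444, 428, 412 and 449 CPM (log2 fold change 1.27, SE 0.05, adjusted p = 3.03e-07). The libraries of each group lay close together and the groups apart. Ppp1r15a (GADD34), which reverses the translation block of the stress response, rose by 2.82, Ddit3 (CHOP) by 1.37 and Xbp1 by 1.06. Of 35 ATF4 targets and tRNA synthetases 13 rose and 0 fell, 10 throughout. Atf4 rose by 1.57 and Eprs, the glutamyl-prolyl-tRNA synthetase, by 1.91 (SE 0.18), with 1665, 1299, 1124 and 1358 CPM after CNO and 325, 277, 501 and 363 CPM after vehicle, apart in every library. The other synthetases that rose throughout, Iars, Cars, Aars and Tars, did so by 0.33 to 0.51. Of 38 heat shock genes 9 rose and 1 fell, with the cochaperone Bag3 at 131, 145, 125 and 148 CPM against 17.4, 15.4, 18.1 and 16.1 CPM (3.03, SE 0.07). That count of rises was 5 without vehicle library 2, and the fall was lost without CNO libraries 2, 3 or 4 or vehicle libraries 2, 4 or 5.

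Several genes that most cells use rose. Tinf2, a subunit of the telomere-capping shelterin complex, stood at 506, 561, 482 and 535 CPM after CNO and at 11.5, 9.93, 11.6 and 13.9 CPM after vehicle (log2 fold change 5.48, SE 0.10, adjusted p = 6.67e-09). Both groups were tight and far apart. Its exons overlap those of Gmpr2 on the opposite strand, which had a log2 fold change of -0.06 (chromosome 14, 55674689 to 55681820). Of the other 6 shelterin genes tested Acd rose (1.08, SE 0.05). Srxn1, sulfiredoxin, which repairs oxidized peroxiredoxins, went from 95.7, 98.7, 86.7 and 106 CPM to 848, 905, 879 and 921 CPM (3.20, SE 0.06). Of 31 Nrf2 antioxidant genes 3 rose, the others being the cystine transporter Slc7a11 (0.78) and thioredoxin reductase Txnrd1 (0.49), and the list median was -0.04. That share of rises was near the 10.2% of all genes tested. The nuclear envelope protein emerin, Emd, rose by 3.46 (SE 0.09), the splicing regulator Ptbp1 by 2.66 (SE 0.06), Ifrd1 by 2.98, the peroxisomal import receptor Pex5 by 2.19 and Fem1b, a substrate receptor of ubiquitin ligases, by 1.86. Exons of Ptbp1 overlap E130317F20Rik (0.53) and those of Ifrd1 overlap Gm7008 (-0.59). Smaller, broader shifts were found in ribosome biogenesis factors, 17 of 35 up and 0 down, such as Bysl (0.91). Cytosolic ribosomal proteins rose in 18 of 78 cases and fell in 0, with a median of 0.21, and 9 rose throughout. With 1 library left out the count ranged from 13, without CNO libraries 2 or 4 or vehicle library 4, to 28, without vehicle library 5. Oxidative phosphorylation genes rose in 1 of 82 cases and fell in 7, beside falls of 7.08% of all genes tested. The falls numbered 24 with upper quartile scaling, 13 with plain totals and 2 without vehicle libraries 3 and 5 together. They numbered 3 without CNO library 4 or vehicle library 2 and 4 without CNO library 5 or vehicle library 5.

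**Figure D3:**
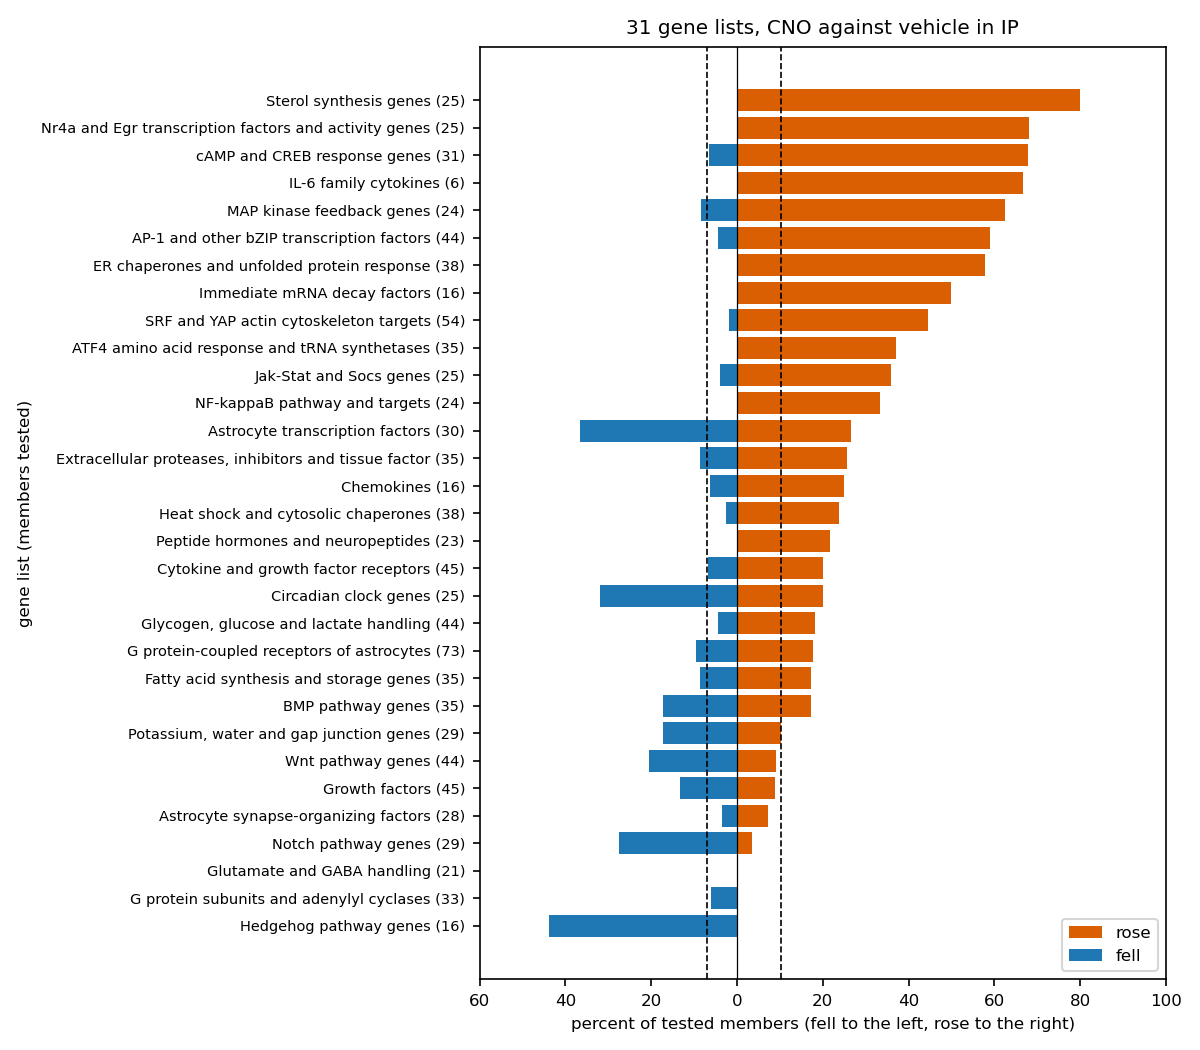
Percent of the tested members of 31 gene lists that rose (orange, to the right) or fell (blue, to the left) after CNO; dashed lines mark the shares over all genes, 10.2% higher and 7.08% lower. Among the lists drawn, sterol synthesis reaches furthest right, followed by the Nr4a and Egr, cAMP and interleukin-6 family lists, and Hedgehog, astrocyte transcription factors and circadian genes furthest left.

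Hedgehog, Notch, BMP and Wnt genes pattern glia in development, and some of them fell. The background share of falls was 7.08%. Hedgehog genes fell in 7 of 16 cases and rose in 0, all 7 throughout, with a median of -0.25. Gli2, an activator of Hedgehog targets, stood at 5.85, 7.61, 4.55 and 3.51 CPM after CNO and 15.8, 14.9, 17.2 and 11.3 CPM after vehicle, lower in every CNO library (log2 fold change -1.5, SE 0.23, adjusted p = 0.00262). The receptor Ptch1 fell by 0.55 (SE 0.08), the transducer Smo by 0.61 (SE 0.07) and the coreceptors Boc and Gas1 each by 0.80. Gli1 and the other 8 members did not pass.

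Notch genes fell in 8 of 29 cases and rose in 1, 6 and 1 throughout, with a median of -0.20. Hes5, a transcriptional repressor and target of Notch, stood at 6.91, 5.73, 3.45 and 2.19 CPM after CNO and 15.2, 21.7, 19.5 and 9.51 CPM after vehicle. The groups did not overlap, although vehicle library 5 lay close to CNO library 2 (log2 fold change -1.92, SE 0.39, adjusted p = 0.0104). Nrarp, a feedback inhibitor of Notch, fell from 67.4, 63, 77.4 and 53.7 CPM to 32, 25.4, 23.6 and 28.2 CPM (log2 fold change -1.26, SE 0.12), and Hey1 fell by 0.79 (SE 0.08) and the ligand Jag1 by 0.72 (SE 0.14). Hes1, a second repressor of the Hes family, went the other way, from 8.68, 9.18, 7.35 and 6.29 CPM to 13.4, 15.5, 14.5 and 15.2 CPM (0.91, SE 0.12).

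BMP genes split evenly, 6 of 35 up and 6 down, 4 of each throughout. The inhibitory Smad6 fell by 1.62 (SE 0.22), the receptor Bmpr1b by 0.83 (SE 0.07) and Id4 from 300, 308, 323 and 241 CPM to 159, 197, 154 and 127 CPM (-0.89, SE 0.14), while Id1 rose by 0.68 (SE 0.07) and the decoy receptor Bambi by 0.72. Wnt genes fell in 9 of 44 cases and rose in 4, with falls of 1.49 for the receptor Fzd10 (SE 0.26) and 0.89 for the transcription factor Lef1 (SE 0.13) throughout. That count of falls was 5 without CNO library 4, 4 without vehicle library 2 and 13 without vehicle libraries 3 and 5 together.

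Transcription factors of astrocyte identity moved both ways, 8 of 30 up and 11 down, 5 and 6 throughout. Rfx4 went from 47.2, 41.5, 44.4 and 38.5 CPM to 209, 183, 184 and 216 CPM (log2 fold change 2.21, SE 0.08, adjusted p = 2.35e-07). Rorb, a nuclear receptor, went from 221, 223, 226 and 197 CPM to 456, 523, 546 and 532 CPM (1.24, SE 0.07). In both, every CNO library lay above every vehicle library. Pax6 fell from 22.7, 21.4, 24.7 and 18.8 CPM to 10.6, 12, 11.9 and 13.5 CPM (-0.87, SE 0.10), Sox8 by 0.73 (SE 0.08), Sall2 by 0.64 and Sox2 by 0.37 (SE 0.07). Sox9 had a log2 fold change of -0.24 (SE 0.08, adjusted p = 0.0739).

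**Figure D4:**
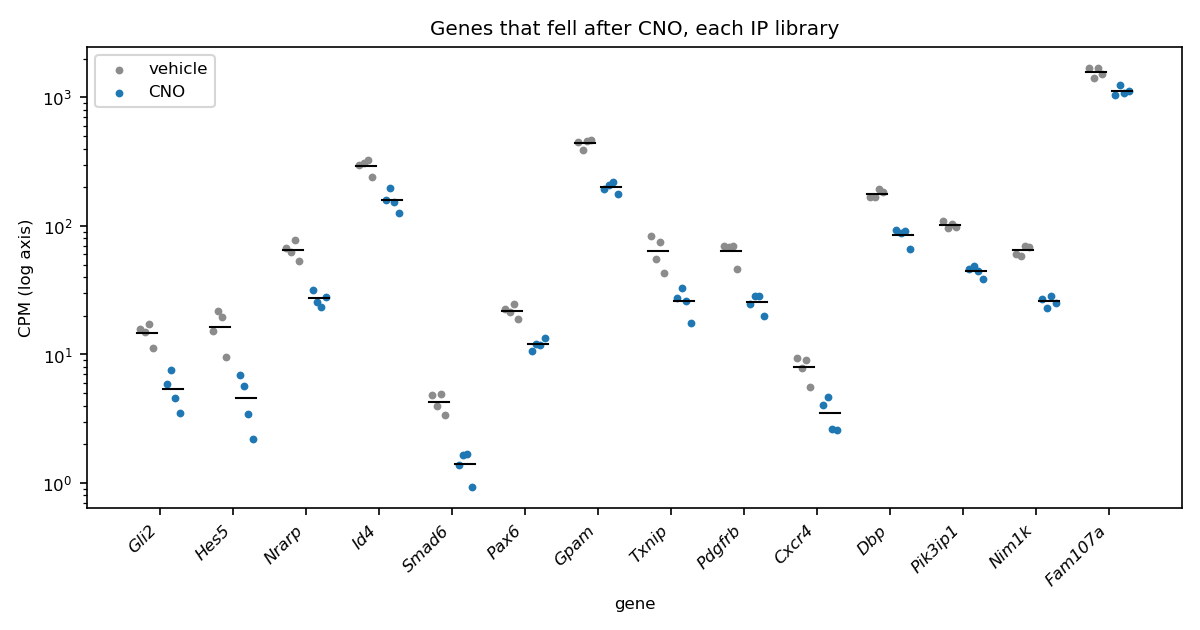
CPM on a log axis (vertical) in each of the 4 CNO (blue) and 4 vehicle (grey) IP libraries for 14 genes that fell; each point is 1 library and each bar a group mean. Only genes whose highest CNO point lies below the lowest vehicle point were drawn, as for Nrarp at 32 against 53.7 CPM. Of all genes tested 10.1% met this condition.

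Glutamate handling, potassium buffering and marker genes of astrocytes were counted next. Of 21 glutamate and GABA handling genes 0 rose and 0 fell in the limma test, with 1 at an unadjusted p under 0.05, and limma-voom called 0. The count of falls reached 4 without vehicle library 5. Slc1a2, the main glutamate transporter, stood at 18579, 19773, 19053 and 18433 CPM against 20547, 21759, 22211 and 14985 CPM in overlapping groups, and its log2 fold change of -0.05 had an SE of 0.12. Slc1a3 (0.03, SE 0.09), Aqp4 (-0.17, SE 0.12) and Aldh1l1 (-0.02, SE 0.08) did not pass. Among 29 potassium, water and gap junction genes 3 rose and 5 fell, beside 10.2% and 7.08% of all genes tested. The share of rises was near that of all genes. The connexin Gjb2 went from 14.9, 11.1, 12.8 and 11.4 CPM to 47.2, 53.3, 52.8 and 57.1 CPM (2.07, SE 0.10), the potassium channel Kcnk10 rose by 1.5 and the volume-regulated channel subunit Lrrc8a by 0.55, all throughout. Of the falls only Hepacam (-0.36) and Dtna (-0.31) held throughout; the count was 2 without CNO library 4 or vehicle library 4 and 3 without CNO libraries 2 or 5 or vehicle library 2. Of 36 astrocyte markers 3 rose and 9 fell, and 15 fell without vehicle library 5; the largest fall outside the lists above was that of Cldn10 (-0.59, SE 0.07). Among genes that passed, the largest losses in CPM were those of Fam107a, an actin-associated protein of astrocytes (1680, 1412, 1694 and 1507 CPM to 1044, 1247, 1074 and 1112 CPM), and of Ppap2b.

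Circadian output and growth arrest genes also changed. Of 25 circadian genes 5 rose and 8 fell, 5 and 6 throughout. Per1, which cAMP and light-driven signals induce, rose by 0.90 (SE 0.07) and Bhlhe40 by 1.24, while Dbp fell from 169, 168, 194 and 183 CPM to 93.7, 88.4, 92.1 and 65.8 CPM, and Nr1d1 fell by 0.47. Exons of Dbp overlap those of Sphk2, which had a log2 fold change of 0.14. Of 31 p53-linked genes 9 rose and 6 fell; Pmaip1 rose by 1.92 and the cell cycle inhibitor Cdkn1a by 0.67, and Sesn1, Bbc3 and the long non-coding RNA Trp53cor1 fell by 0.71, 0.71 and 1.68. With upper quartile scaling or plain totals 10 of these fell. Of 29 glucocorticoid-responsive genes 10 rose and 1 fell; the metallothionein Mt2 rose by 1.37 and the receptor Nr3c1 fell by 0.46 (SE 0.04). The falls numbered 3 without CNO library 3 or with upper quartile scaling or plain totals, and 2 without vehicle library 3 or 5. The rises numbered 7 without vehicle libraries 3 and 5 together. Pik3ip1, an inhibitor of phosphoinositide 3-kinase, and Nim1k, a kinase related to AMPK, fell by 1.20 (SE 0.07) and 1.32 (SE 0.08), and none of their CNO libraries reached a vehicle library.

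Lists that others drew up for reactive astrocytes were counted in the same way. Of 12 A2 genes, taken from astrocytes after ischaemia, 10 rose and 0 fell, 6 throughout, with a median of 1.63; the count was 6 without vehicle library 2. The 6 were Sphk1, Clcf1, the pentraxin Ptx3 (3.33), Slc10a6, B3gnt5 (1.68) and Emp1 (1.57). Slc10a6 had 14 reads in all vehicle libraries and 95 after CNO and, like Clcf1, passed the filter on low values only with the CNO libraries. The place of these genes among the 10 is therefore no support for the count or the median. Where at least 1 CPM was required in 4 libraries, 8 of 10 rose. Sphk1, Clcf1 and Ptx3 met that filter only with the CNO libraries, so their place among the 8 is no support either. Of 11 A1 genes, taken from astrocytes after endotoxin, 1 rose and 1 fell, neither throughout: Fkbp5 (1.0) was lost without vehicle libraries 3 and 5 together (adjusted p = 0.0756), and Amigo2 (-0.29) without any 1 library other than CNO library 3 or vehicle library 5. Of 13 pan-reactive genes 4 rose, and 7 without vehicle libraries 3 and 5 together. Of 27 interferon genes 3 rose, among them Rsad2 (1.07), and 10 rose without vehicle library 5, the library with the highest summed interferon level. The lists were not tested against each other.

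Markers of other cell types gave few calls. None of 22 oligodendrocyte, 21 medium spiny neuron, 15 interneuron, 20 pan-neuronal and 12 ependymal markers passed in limma, with 4 of these 90 at an unadjusted p under 0.05 and 0 called by limma-voom. Leaving out CNO library 4 gave 1 fall among medium spiny neuron markers, and leaving out vehicle library 4 gave 1 among oligodendrocyte markers. In other settings the ependymal markers that fell numbered up to 3, without vehicle libraries 3 and 5 together, and their summed level was 224 to 307 CPM after CNO and 277 to 421 CPM after vehicle. Of 24 microglial and myeloid markers Cd68, a lysosomal protein, rose (1.17, SE 0.12), and their summed level was 140 to 165 CPM after CNO and 118 to 189 CPM after vehicle; 2 rose without vehicle library 5 and 1 fell without vehicle library 3. Of 18 endothelial markers Slco1c1 rose and Ptprb fell (-0.34), the latter call being lost without CNO libraries 4 or 5 or vehicle library 2. Of 18 mural and fibroblast markers Tagln rose (1.33, SE 0.26; adjusted p = 0.052 without vehicle libraries 3 and 5 together) and Pdgfrb fell; 2 fell without CNO library 3 or vehicle libraries 3 or 4, and 2 rose without vehicle library 5. Summed levels did not overlap for 2 of these marker lists. Endothelial markers summed to 220 to 254 CPM after CNO and 168 to 183 CPM after vehicle, of which Slco1c1 made up 162 to 190 CPM and 95.1 to 111 CPM. Mural and fibroblast markers summed to 274 to 322 CPM after CNO and 337 to 391 CPM after vehicle, of which Pdgfrb made up 20 to 28.7 CPM and 46 to 69.4 CPM. For each of the 2 lists the exact permutation test gave p = 0.0286, and 0.0638 after adjustment over the lists, which did not pass 0.05. The part of other cell types in the changed genes was not tested.

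The last comparison asks whether the changes in IP differ from those in whole lysate of the same mice. In input 129 of 15825 genes rose (0.815%) and 29 fell (0.183%); the falls numbered 4 without vehicle library 2, 8 without CNO libraries 3 or 5 or vehicle library 4, and 11 without vehicle library 3. The test of the difference, CNO effect in IP minus that in input within each mouse, found 851 of 15269 genes higher in IP (5.57%) and 174 lower (1.14%). The count of lower genes was 66 without vehicle mouse 2, 87 without CNO mouse 5, 95 without CNO mouse 3 and 103 without CNO mouse 4; higher genes numbered 528 without vehicle mouse 2. Cmklr1 had a log2 fold change of 0.66 in input, which did not pass, and the difference was 5.18 (adjusted p = 5.69e-06). For Nr4a3 the input value was 1.37 and the difference 3.26, for Thbs1 1.71 and 3.54, and for Rgs2 -0.14 and 1.61. Hes5 differed in the opposite direction, with -0.80 in input and a difference of -1.12 (adjusted p = 0.00192). Il11 rose in input as well (4.98), by less than in IP (difference 2.65, adjusted p = 0.0018). For other genes no difference passed: Fosl1 had 4.91 in IP and 4.59 in input (adjusted p of the difference = 0.501), Lif 2.21 and 1.88 (adjusted p = 0.422), Dio2 1.67 and 1.32 (adjusted p = 0.0835) and Rorb 1.24 and 1.16 (adjusted p = 0.887). A missed threshold does not show that the effects were equal. By list, 18 of 25 sterol genes, 17 of 44 bZIP factors and 12 of 24 MAP kinase feedback genes had a higher effect in IP, beside 5.57% of all genes, whereas 4 of 29 Notch genes had a lower one, beside 1.14%.

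**Figure D5:**
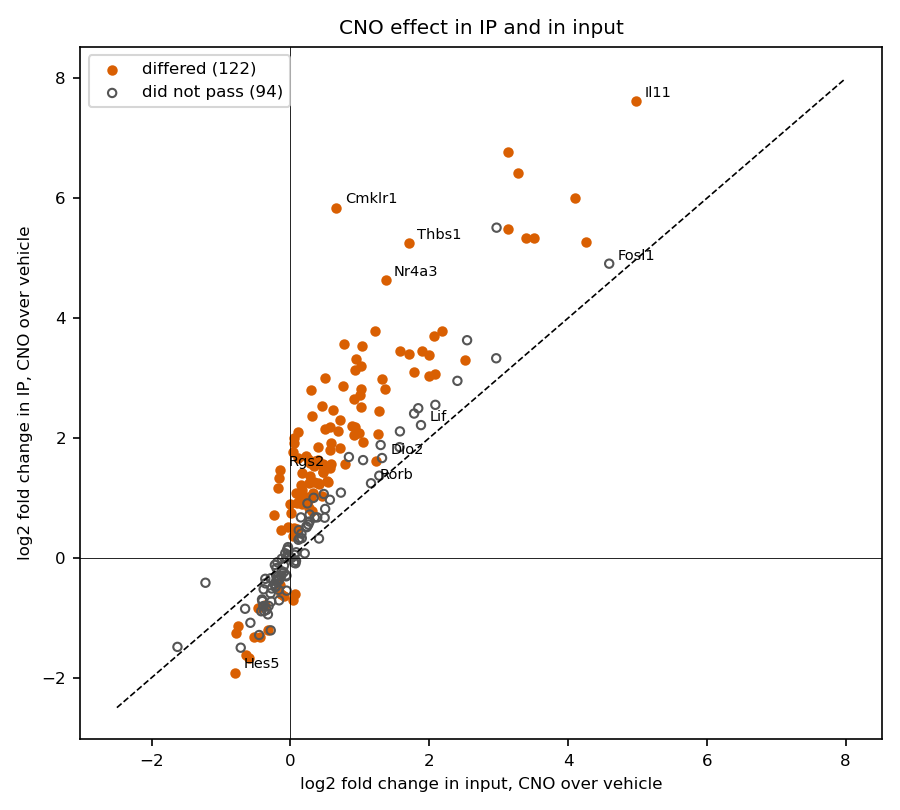
Log2 fold change of CNO over vehicle in IP (vertical axis) against that in input (horizontal axis) for the named genes measured in both; filled points differed between IP and input in the test within mice and open points did not, and the dashed line marks equal effects. Cmklr1 and Thbs1 lie far above the line and Fosl1, Rorb and Dio2 close to it.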

How the data were processed

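Ribosome IP and input RNA of striatum was sequenced; the 8 IP libraries are the data here, and the 8 inputs serve the last comparison. The authors deposited log2 CPM per gene and library, made with bcl2fastq 2.17, STAR, HTSeq and limma on mm10, per the submitters' processing notes; which annotation and strand setting were used is not given in the sources used here. Whole reads were recovered from the low values, and 100% of the values fell within 0.01 of a whole number. Genes were tested with at least 10 reads per median library (0.188 CPM) in 4 of 8 libraries and at least 15 reads in all. The test was limma 3.58.1 (R 4.3.3, trend and robust) with Benjamini-Hochberg adjustment at 0.05, checked on simulated data. The difference between IP and input was fitted on within-mouse differences. Summed levels were compared by an exact permutation test, two-sided. The 18 other settings were other scalings, filters, prior count, limma-voom, untrended variance, all 16 libraries in one fit, a replicate block, each library left out, and 1 pair left out. Any member of the gene lists could be named; outside them, the 20 largest rises and 20 largest falls without overlap and at a mean of at least 5 CPM in the higher group, the 15 largest rises and 15 largest falls in CPM, and the 15 smallest adjusted p. The members, lists and comparisons were chosen with earlier results of these data known. Depth limits low genes most, and read counts cover counting error only. Promoter windows came from RefSeq tables. Some genes are not reported here.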

Additional observations from a re-analysis of the deposited data

Results flagged for a closer look

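In 42 of 572 groups of 4 libraries examined, 1 library stood apart from the other 3 by Dixon's criterion for small groups, which chance reaches in about 1 in 20 groups. Library 2 of the CNO group lay below its group for Cd44 at 103 CPM, Pim1 at 11.5 CPM and Sik3 at 273 CPM. For CNO library 3, values above the group were Hepacam at 269 CPM. Library 3 of the CNO group lay below its group for Fosl1 at 22.5 CPM. For CNO library 4, values above the group were Nes at 36 CPM. Library 4 of the CNO group lay below its group for Adamts9 at 40.4 CPM and Manf at 70.8 CPM. For CNO library 5, values above the group were Adamts1 at 601 CPM, Atf3 at 151 CPM, Fem1b at 983 CPM, Fgf2 at 19.2 CPM, Iars at 89.7 CPM and Zfp36 at 27.2 CPM. Library 5 of the CNO group lay below its group for Chat at 77.9 CPM, Dbp at 65.8 CPM, Hey1 at 71.2 CPM, Tagln at 5.11 CPM and Tef at 235 CPM. For vehicle library 3, values below the group were Npy at 177 CPM and Yap1 at 78 CPM. Library 4 of the vehicle group lay above its group for Ucn at 0.0188 CPM. That is 1 read beside 0 in vehicle libraries 2, 3 and 5, so the criterion was met by construction. For vehicle library 4, values below the group were Pde3b at 6.99 CPM. Library 5 of the vehicle group lay above its group for Cars at 39.3 CPM, Cdkn1a at 137 CPM, Epha2 at 2.54 CPM, Fosl1 at 1.78 CPM and Iars at 64.4 CPM. For vehicle library 5, values below the group were Dio2 at 323 CPM, Dtna at 395 CPM, Pdgfrb at 46 CPM and Rorb at 197 CPM. Summed list levels stood apart for cytokine and growth factor receptors in CNO library 3 (high, 8075 CPM), G protein-coupled receptors of astrocytes in vehicle library 5 (low, 8863 CPM), AP-1 and other bZIP transcription factors in CNO library 5 (high, 4316 CPM) and extracellular proteases, inhibitors and tissue factor in vehicle library 3 (low, 3497 CPM). The same held for sphingosine and lipid mediators in vehicle library 3 (low, 2857 CPM), calcium stores and calcineurin in CNO library 3 (low, 12486 CPM), glycogen, glucose and lactate handling in CNO library 4 (low, 14073 CPM) and p53-linked growth arrest genes in vehicle library 5 (high, 3458 CPM). The same held for A2 reactive astrocyte genes in CNO library 2 (low, 209 CPM) and translation initiation factors in CNO library 2 (low, 5513 CPM). 

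The CNO effect differed between IP and input by the test within mice in 851 genes that were higher in IP and 174 that were lower. On the log2 scale the named differences, IP minus input, were 5.18 for Cmklr1, -1.12 for Hes5, 2.65 for Il11, 3.26 for Nr4a3, 1.61 for Rgs2 and 3.54 for Thbs1.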

How the results depend on the processing

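Of the 195 named genes that passed, 184 kept their call in all 18 other settings where they were tested, 11 lost it in at least 1, and 0 changed direction. The number of genes that fell in IP was 1947 with upper quartile scaling and 595 to 1206 with 1 library left out, against 1104. In input, falls ranged from 4 to 27 with 1 library left out, against 29. The difference between IP and input gave 528 to 718 higher and 66 to 138 lower genes with 1 mouse left out, against 851 and 174, and 95 lower genes in an interaction fit that treats the 16 libraries as independent. The causes were not tested. Deviations of same-numbered CNO and vehicle libraries from their group means correlated weakly (0.12, -0.19, -0.17 and 0.22). For number 5 the value exceeded the highest one with another number (0.17). Such a check over 4 numbers cannot exclude that the numbers pair the mice, and the main fit has no block. With a replicate block 1236 genes rose and 717 fell in IP, 95 rose and 7 fell in input, and 443 were higher and 57 lower in IP than in input. In that fit with a replicate block Gna13 did not pass (adjusted p = 0.0572), G protein subunits gave 0 falls and 10 cytosolic ribosomal proteins rose. Reads of genes near the filter limit what can be seen at low levels.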

Other observations

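Further lists hold values not described above. Of 53 translation initiation factors 14 rose and 0 fell, 6 throughout, with a median of 0.12. Of 38 proteasome subunits 6 rose and 0 fell, a count that was 3 with upper quartile scaling. Nuclear transport genes rose in 5 of 23 cases, all 5 throughout. Of 15 phagocytosis genes 2 rose and 4 fell, and 0 rose without CNO libraries 2 or 4 or vehicle libraries 2 or 4; the falls numbered 2 without vehicle library 2. Of 40 calcium store and calcineurin genes 3 rose and 2 fell, and 4 fell without vehicle library 5 and 1 without CNO libraries 2, 4 or 5 or vehicle libraries 2, 3 or 4. The background shares were 10.2% rising and 7.08% falling.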
